A study of Mus musculus with 4 samples.

Results

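Lymphoid priming and antigen receptor transcripts were followed in single LSK cells sorted from livers of E17.5 mouse fetuses. The members are 10 genes taken by name from the 32285 genes of each matrix, and all 10 were found. The 5 B-side members are Dntt, Rag1, Ighm, Ebf1 and Mzb1, and the 5 T-side members are Notch1, Satb1, Ccr9, Trbc1 and Trbc2. The KO library came from Vav-Cre:Bclaf1f/f embryos, in which Cre under the Vav promoter acts in blood cells on floxed Bclaf1 alleles, and the WT library from Bclaf1f/f embryos without Cre. Both genotypes carry the floxed alleles, so that presence of Cre and loss of Bclaf1 cannot be told apart. The LSK phenotype (Lineage- Sca1+ c-Kit+) covers blood stem cells and early progenitors. Livers of 10 embryos per genotype were pooled and enriched for c-Kit, 20000 LSK cells were sorted and 10000 loaded for CITE-seq, which counts messenger RNA and antibody-linked tags in the same cell. With 1 library per genotype there was no replicate and no test was made. All values compare these libraries. Ranges in brackets are 95% intervals for counting error alone.

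The KO library held 2669 cells and the WT library 5345 cells, with 103532373 and 141419013 unique molecular identifiers (UMIs) on genes. Depth per cell differed, with medians of 34136 UMIs in KO and 22734 UMIs in WT. The 2 sets of cells shared 5 barcodes. Bclaf1 had 75.8 UMIs per 1000000 gene UMIs (CPM) in KO and 217.8 CPM in WT, a log2 ratio of -1.52 (-1.56 to -1.49). Reads come from 3′ ends, so this level does not test whether floxed exons elsewhere in the gene were removed.

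Lymphocyte lineages begin in multipotent progenitors that transcribe genes of several lineages at a low level before any is chosen, which is called lineage priming. EBF1 and its partners then commit cells to the B lineage, and Notch signals commit them to the T lineage in the thymus. Unrearranged immunoglobulin and T cell receptor loci give so-called germline transcripts of their constant regions before recombination, so a UMI of Ighm, Trbc1 or Trbc2 does not show a rearranged receptor. Dntt and Rag1, the genes of terminal deoxynucleotidyl transferase and of a recombinase subunit, act in both lineages. They stand here on the B side because the members were grouped that way, and Dntt is little used in fetal lymphocytes of mice. CD150 and CD48 are surface proteins used to part stem cells, which are CD150+CD48-, from progenitors, and lymphoid-primed progenitors are found among CD150-CD48+ cells.

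Upstream sequences of Rag1, Ebf1 and Ccr9 are shown because these genes of both sides turned up in the same cells. The RefSeq table (GRCm38.p6) held 6 of the 10 members, and the 250 bases before each start are given 5′ to 3′ on the gene's strand. Capitals mark CAGGTG, an E protein motif, TGTGGT, a RUNX motif, and TGGGAA, the core RBPJ motif through which Notch acts, on either strand. In the second Ebf1 window the RBPJ motif lies on the other strand and reads TTCCCA. None of the marked motifs overlap.
Rag1, chr2:101649533-101649782, minus strand: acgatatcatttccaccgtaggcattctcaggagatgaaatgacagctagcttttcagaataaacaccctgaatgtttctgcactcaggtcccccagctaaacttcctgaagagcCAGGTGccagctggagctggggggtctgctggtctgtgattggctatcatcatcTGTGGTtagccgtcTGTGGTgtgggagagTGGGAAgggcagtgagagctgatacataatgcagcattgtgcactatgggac
Ebf1, first start, chr11:44617850-44618099, plus strand: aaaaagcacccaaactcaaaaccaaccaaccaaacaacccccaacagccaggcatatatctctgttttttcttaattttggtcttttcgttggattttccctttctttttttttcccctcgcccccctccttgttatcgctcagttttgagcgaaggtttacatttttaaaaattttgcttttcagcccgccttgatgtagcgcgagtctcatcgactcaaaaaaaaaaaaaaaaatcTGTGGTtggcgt
Ebf1, second start, inside the gene, chr11:44619978-44620227, plus strand: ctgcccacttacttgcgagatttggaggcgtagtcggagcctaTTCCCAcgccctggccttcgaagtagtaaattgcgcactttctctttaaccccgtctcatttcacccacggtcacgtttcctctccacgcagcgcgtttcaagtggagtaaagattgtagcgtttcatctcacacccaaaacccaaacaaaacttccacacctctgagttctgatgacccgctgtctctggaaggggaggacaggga
Ccr9, chr9:123766961-123767210, plus strand: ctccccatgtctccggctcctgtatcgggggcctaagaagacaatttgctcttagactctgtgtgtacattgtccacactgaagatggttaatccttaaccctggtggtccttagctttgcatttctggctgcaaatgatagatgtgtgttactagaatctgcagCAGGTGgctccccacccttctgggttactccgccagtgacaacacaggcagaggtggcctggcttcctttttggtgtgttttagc

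Rag1 and Ccr9 both held CAGGTG, at 135 to 130 and at 85 to 80 bases before the start, and 17.2% of all 32851 windows of this length held it. Rag1 held TGTGGT at 2 places (81 to 76 and 67 to 62 bases before the start) and the first Ebf1 window held it at 12 to 7 bases, against 14.0% of all windows. TGGGAA was found 52 to 47 bases before the Rag1 start and 207 to 202 bases before the second Ebf1 start, against 21.6% of all windows. The palindromic EBF1 motif was in none of the 4 windows shown and in 0.779% of all. These matches are letters in a window and were not tied to binding or to the levels below.

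All 10 members were transcribed in LSK cells of both genotypes, and for most of them the level over all cells was close between the libraries. Of the B-side members, Ighm, the constant region gene of the immunoglobulin mu heavy chain (chromosome 12, 113418826 to 113422730), had 36.9 CPM (35.7 to 38.1) in KO and 37.5 CPM (36.5 to 38.6) in WT. Its log2 ratio of KO over WT was -0.02 (-0.08 to 0.04). Ebf1, which encodes the B lineage transcription factor EBF1 (chromosome 11, 44618100 to 45008096), had 5.33 CPM in KO and 4.82 CPM in WT, a log2 ratio of 0.14 (-0.02 to 0.31). Both differences lay within counting error.

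Mzb1 was the B-side member that differed between the libraries. It encodes an endoplasmic reticulum protein of antibody-producing B cells (chromosome 18, 35647265 to 35650266), and it had 18.6 CPM (17.8 to 19.5) in KO and 25.8 CPM (25 to 26.7) in WT. The log2 ratio was -0.47 (-0.55 to -0.39).

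Rag1 and Dntt were rare. Rag1 (chromosome 2, 101638252 to 101649532) had 81 UMIs in 54 KO cells and 120 UMIs in 76 WT cells, which is 0.782 CPM in KO and 0.849 CPM in WT, a log2 ratio of -0.12 (-0.54 to 0.30). Dntt (chromosome 19, 41029275 to 41059525) had 7 UMIs in 5 KO cells and 5 UMIs in 5 WT cells, and a log2 ratio of 0.94 (-0.94 to 2.93). Neither reached the mean of 1 CPM set for a call, and a difference in Dntt was not detectable at this depth.

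Of the T-side members, Notch1, the receptor that starts the T lineage program (chromosome 2, 26457902 to 26503822), had 38.7 CPM in KO and 38.6 CPM in WT, a log2 ratio of 0.005 (-0.05 to 0.06). Satb1, a chromatin organiser of early lymphoid cells and thymocytes (chromosome 17, 51736187 to 51833290), had 64.9 CPM in KO and 65.9 CPM in WT, a log2 ratio of -0.02 (-0.07 to 0.02). Ccr9, a chemokine receptor by which progenitors reach the thymus (chromosome 9, 123767211 to 123783457), had 14.9 CPM in KO and 15.3 CPM in WT, a log2 ratio of -0.04 (-0.13 to 0.06). These 3 lay within counting error.

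The T cell receptor beta constant region genes lay below WT in the KO library. Trbc2 (chromosome 6, 41546730 to 41548181) had 46.7 CPM (45.4 to 48.0) in KO and 53.6 CPM (52.4 to 54.8) in WT, a log2 ratio of -0.20 (-0.25 to -0.15). Trbc1 (chromosome 6, 41538219 to 41539665) had 2.68 CPM (2.37 to 3.01) in KO and 4.17 CPM (3.84 to 4.52) in WT, a log2 ratio of -0.64 (-0.85 to -0.43). The constant regions are near-identical in their coding part, and how reads they share were counted is not given in the sources used here, so the split between Trbc1 and Trbc2 is uncertain.

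Of the 8 members with a mean of at least 1 CPM, 0 were at least 25% higher in KO and 2, Mzb1 and Trbc1, were at least 20% lower. Over all 11902 genes measured this way, 10.2% were at least 25% higher and 4.49% at least 20% lower. The median log2 ratio was -0.03 over the 8 members and 0.06 over all genes measured. Free RNA in empty droplets came to a median of 198 UMIs in KO and 130 UMIs in WT per droplet, 0.580% and 0.572% of a median cell, and its subtraction left the log2 ratios of Mzb1 at -0.47 and of Trbc1 at -0.64.

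**Figure D1:**
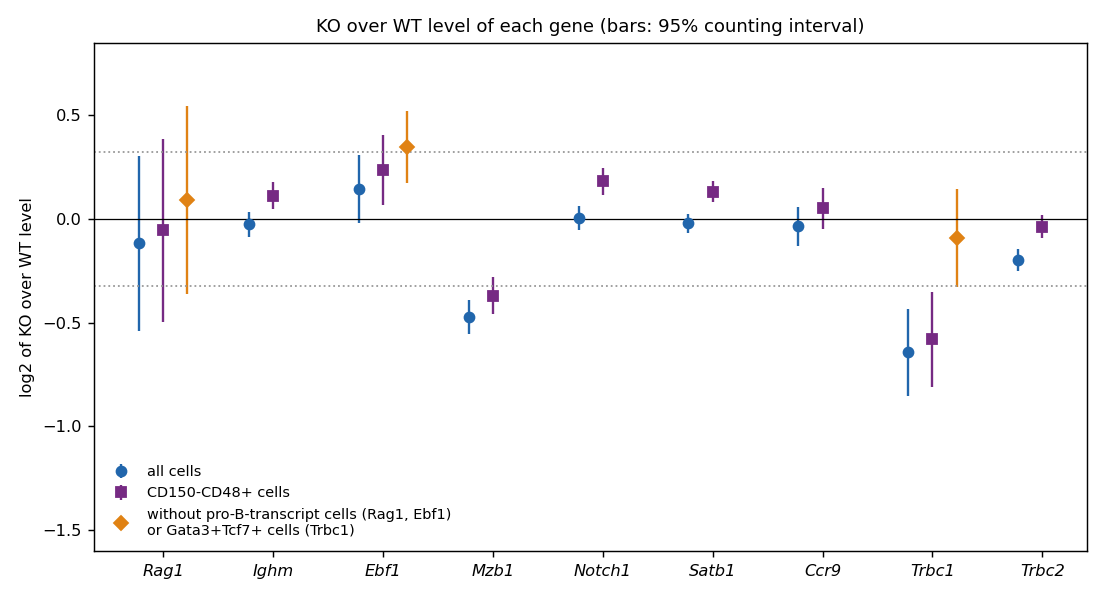
Log2 of the KO over WT level (vertical axis) of 9 members, with 95% counting intervals; Dntt is left out for its 7 and 5 UMIs. Circles are all cells, squares the CD150-CD48+ gate and diamonds all cells without a few named cells; dotted lines mark 25% higher and 20% lower. Mzb1 lay below 0 in both sets, and Trbc1 moved to -0.09 without 9 KO and 20 WT cells.

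The lower Trbc1 value of the KO library rested on few cells. Cells with UMIs of both Gata3 and Tcf7, transcription factors of T and innate lymphoid cells, numbered 9 in KO and 20 in WT, a set chosen after the values were seen. They held 28 of 277 Trbc1 UMIs in KO (10.1%) and 228 of 590 in WT (38.6%), with up to 51 in 1 WT cell. Without them Trbc1 had 2.41 CPM (2.12 to 2.73) in KO and 2.57 CPM (2.31 to 2.85) in WT, a log2 ratio of -0.09 (-0.33 to 0.15), and the difference lay within counting error.

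Other genes of T and innate lymphoid cells were counted in the same Gata3+Tcf7+ cells, here without thinning. Zbtb16, which encodes a factor of innate lymphoid precursors, was found in 6 of 9 KO and 11 of 20 WT cells, against 9.70% of the other KO and 3.83% of the other WT cells. Id2, an inhibitor of E proteins needed by innate lymphoid cells, was found in 6 of 9 KO and 11 of 20 WT cells, against 20.7% and 15.7% of the others. Lck, a kinase of T cell receptor signalling, was found in 4 of 9 KO cells (44.4%, 13.7 to 78.8) and 12 of 20 WT cells, against 15% (13.6 to 16.4) and 13% (12.1 to 13.9) of the others, and its KO intervals overlap. Bcl11b, a T lineage commitment factor, was found in 0 of 9 KO and 4 of 20 WT cells, and in 1 and 5 of the others. Of the B-side members, Ebf1, Rag1 and Dntt had 0 UMIs in these cells, Ighm had 33 UMIs in 3 KO and 11 UMIs in 5 WT cells, and Mzb1 had 1 UMI in KO and 10 UMIs in WT. Cd3e, a defining T cell gene, had 1 UMI in the KO cells and 0 in the WT cells. The cells held 143 of 4834 Trbc2 UMIs in KO (2.96%) and 225 of 7577 in WT (2.97%), and without them the log2 ratio of Trbc2 stayed at -0.20.

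A few WT cells also raised the WT level of Ebf1. Cells with UMIs of Cd79a, Igll1 and Pax5 together, genes of committed B cell precursors, numbered 1 in KO and 4 in WT and were also chosen after the values were seen. The KO cell held 29 Ebf1 UMIs, and the 4 WT cells held 23, 25, 31 and 42, or 17.7% of the Ebf1 UMIs in WT. They also held 6 of 81 Rag1 UMIs in KO and 24 of 120 in WT. Without them Ebf1 had 5.05 CPM in KO and 3.97 CPM in WT, a log2 ratio of 0.35 (0.17 to 0.52), and Rag1 had 0.09 (-0.36 to 0.54).

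The WT cells of this kind held few T-side UMIs. The 4 WT cells together had 1 Trbc2 UMI, 0 Ccr9 UMIs, 0 Trbc1 UMIs, 2 Notch1 UMIs and 3 Satb1 UMIs, against 121 Ebf1, 37 Ighm and 46 Mzb1 UMIs. The KO cell had 0 Trbc2 and 0 Trbc1 UMIs, 1 Ccr9, 5 Notch1 and 2 Satb1 UMIs, and its gene UMIs (45886) exceeded those of each WT cell (11089 to 35048).

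Single cells differed widely in how much of a member they held. The 1% of cells with most UMIs of a member (27 KO and 54 WT cells) held 43.9% of Ccr9 UMIs in KO and 43.4% in WT, 65.3% and 74.9% of Trbc1 UMIs, and 68.1% and 73.5% of Ebf1 UMIs. For Satb1 they held 8.02% in KO and 7.36% in WT, and for Notch1 9.52% and 9.56%. The highest single value was 104 Trbc2 UMIs in a KO cell, against 54 in the highest WT cell.

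Of the 10 members, all but Dntt were highest in the CD150-CD48+ gate of both libraries. This gate held 1560 KO cells (58.4%, 56.6 to 60.3) and 3431 WT cells (64.2%, 62.9 to 65.5). CD150+CD48+ held 444 KO and 785 WT cells, CD150-CD48- held 465 and 653, and the stem cell gate CD150+CD48- held 200 and 476. Median UMIs were 35656 in KO and 24328 in WT in the CD150-CD48+ gate, and 22563 in KO and 15375 in WT in the stem cell gate. Levels summed over a gate cannot tell fewer cells of a type from less RNA per cell.

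Ighm, Ccr9 and Trbc2 were at least 10-fold higher in CD150-CD48+ cells than in the stem cell gate of both libraries, also under 3 other ways to set the gates (lowest 13.8-fold for Ighm, 11.1-fold for Ccr9 and 10.1-fold for Trbc2). In KO, Ighm had 56.8 CPM in CD150-CD48+ cells, 10.2 in CD150+CD48+, 13.1 in CD150-CD48- and 1.90 CPM in the stem cell gate. In WT, the same gates had 52.5, 11.3, 10.2 and 0.962 CPM. The fold between the first and last gate was 29.9 in KO and 54.6 in WT.

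Trbc2 had 72.9, 10.5, 16.3 and 1.90 CPM in these gates of KO, and 74.8, 14.7, 18.4 and 1.32 CPM in those of WT. Ccr9 had 22.6, 5.65, 3.95 and 1.21 CPM in KO, and 21.8, 2.70, 4.58 and 0.601 CPM in WT. Ebf1 had 8.49 CPM in the first gate and 1 UMI in the stem cell gate in KO, and 7.20 CPM and 1 UMI in WT. Its log2 ratio between the gates was 5.62 (3.14 to 10.9) in KO and 5.90 (3.42 to 11.2) in WT. This large value was not stable for Ebf1 in KO, where gates set by Otsu's method gave 1.24 (2.36-fold). Gates on the centred log ratio lowered the WT folds of Ighm to 13.8, of Ccr9 to 12.3 and of Trbc2 to 10.1.

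In the stem cell gate Trbc1 was at 0 UMIs in KO alone and Rag1 in both libraries. Trbc1 had 227 UMIs in KO CD150-CD48+ cells and 0 in the KO stem cell gate, at least 7.37-fold higher (floor of 3 counts over the gate), and 528 and 4 UMIs in WT, a fold of 11.9. Rag1 had 72 and 0 UMIs in KO, at least 2.34-fold higher, and 116 and 0 UMIs in WT, at least 3.48-fold higher. Dntt had 0 UMIs in this gate of both libraries, and 3 in KO and 4 in WT in CD150-CD48+ cells.

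Mzb1, Notch1 and Satb1 kept a clear level in the stem cell gate. Mzb1 had 25.1 CPM in CD150-CD48+ cells and 10.2 CPM in stem gate cells of KO, and 32.4 and 17.6 CPM in WT. Notch1 had 54.3 and 19.2 CPM in KO, and 47.9 and 25.1 CPM in WT. Satb1 had 93.5 and 16.4 CPM in KO, and 85.3 and 19.6 CPM in WT. For Mzb1 and Notch1 the lowest gate was not the stem cell gate but CD150+CD48+, with 7.09 CPM in KO and 7.65 CPM in WT for Mzb1, and 13.8 CPM in KO and 17.7 CPM in WT for Notch1.

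Between the CD150-CD48+ and the stem cell gate, 8 of 8 measured members were at least 2-fold higher in KO and 6 of 8 in WT, against 3.88% of all genes in KO and 3.19% in WT. Ebf1 and Trbc1 in KO, and Ighm, Ebf1, Ccr9 and Trbc1 in WT, were under 1 CPM in the stem cell gate and passed the filter through the other gate alone, so the counts are a description. Mzb1 and Notch1 were the WT exceptions, at 1.85-fold and 1.90-fold. Counting Rag1 at its bound, 7 of the 10 members were at least 2-fold higher in both libraries.

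**Figure D2:**
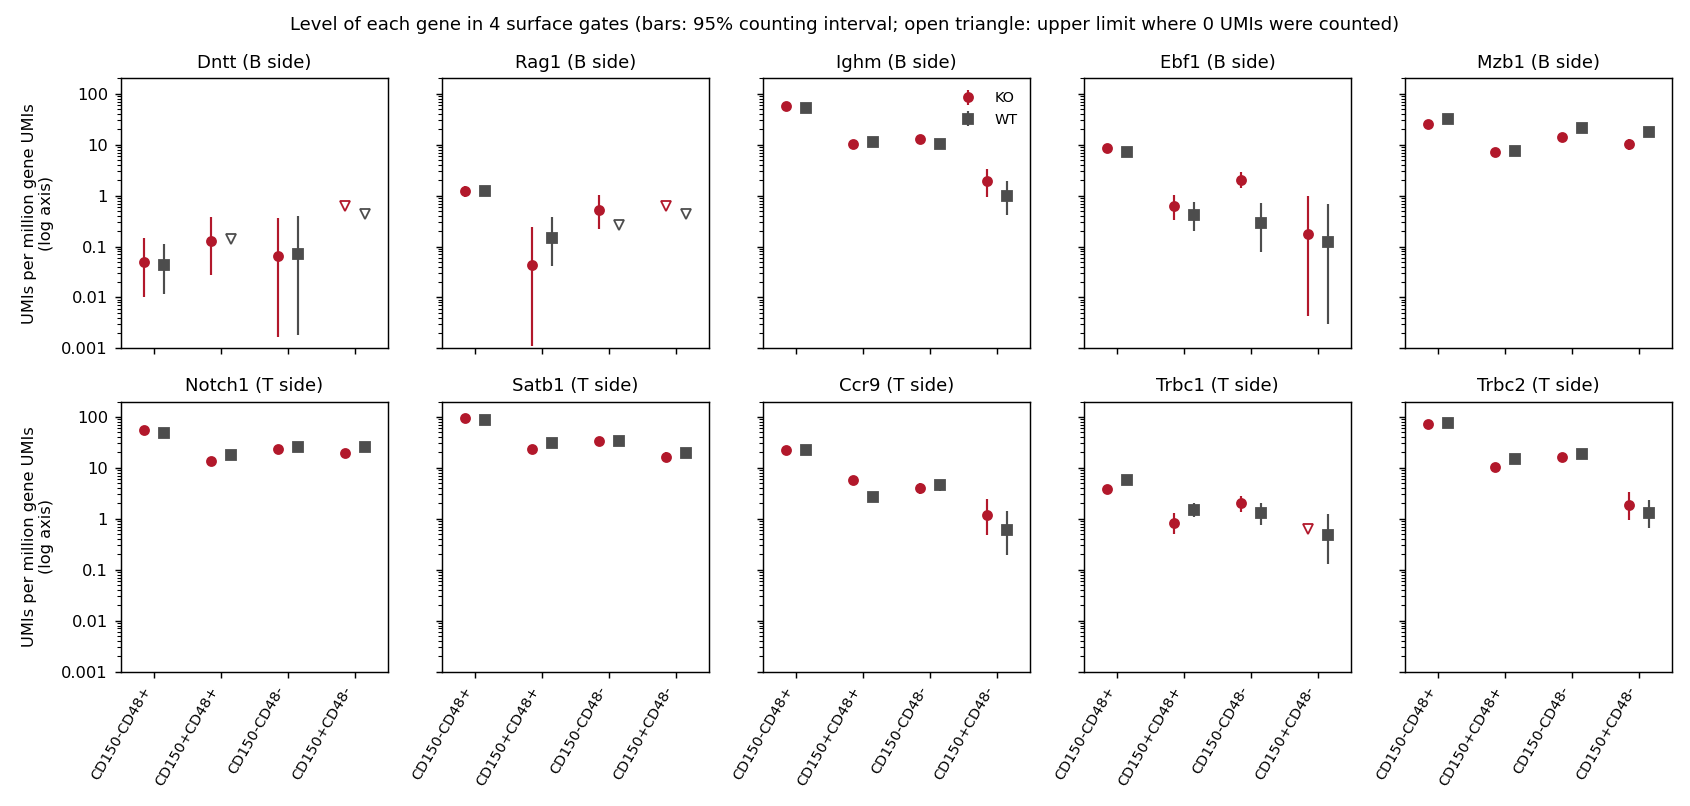
Level of each member in CPM (vertical log axis, the same in all panels) in 4 surface gates (horizontal axis), KO as circles to the left of WT as squares, with 95% counting intervals. Open triangles mark the upper limit where 0 UMIs were counted. Ighm, Ebf1, Ccr9 and Trbc2 were more than 10-fold higher in the first gate than in the last in both libraries (2.36-fold for Ebf1 in KO with Otsu's gates). Mzb1, Notch1 and Satb1 were less than 6-fold higher (6.13 to 7.64-fold for Satb1 in KO under 3 other ways to set the gates).

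CD34 parted the CD150-CD48+ gate further. Its CD34+ part held 1348 KO and 3091 WT cells and its CD34- part 212 KO and 340 WT cells. In KO, 7 of 8 measured members were at least 2-fold higher in CD34+ cells and 0 at least 2-fold lower, where 6.29% of all genes were higher. Ebf1 passed the filter in KO through the CD34+ part alone, so this count is a description. In WT, 5 of 9 were at least 2-fold higher, where 3.4% of all genes were, and 2, Rag1 and Trbc1, were at least 2-fold lower. The share of all genes at least 2-fold lower was not counted, so the lower counts are a description. Ighm had 64.5 CPM in CD34+ and 8.72 CPM in CD34- cells of KO, and 57.0 and 13 CPM in WT.

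Trbc1 ran the other way in both libraries, with 3.38 CPM in CD34+ and 6.54 CPM in CD34- cells of KO, and 4.61 and 15.5 CPM in WT. Ebf1 had 9.84 CPM in CD34+ and 0.121 CPM (1 UMI) in CD34- cells of KO. In WT it had 7.02 CPM in CD34+ and 8.84 CPM in CD34- cells, a log2 ratio of -0.33 (-0.67 to 0.02). Its 83 UMIs in WT CD34- cells lay in 4 cells, and 4 UMIs in 1 cell (0.428 CPM) were left without the cells with Cd79a, Igll1 and Pax5.

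Rag1 also lay higher in CD34- cells of WT. It had 1.08 CPM in CD34+ and 2.77 CPM in CD34- cells of WT, a log2 ratio of -1.35 (-2.00 to -0.67), and 1.39 and 0.121 CPM (1 UMI) in KO. Of its 26 UMIs in WT CD34- cells, 2 (0.214 CPM) were left without the same cells.

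Within the CD150-CD48+ gate the KO over WT ratios lay higher than over all cells. Of 9 measured members, 0 were at least 25% higher in KO and 2, Mzb1 and Trbc1, at least 20% lower, against 11.6% and 2.1% of all genes. Of the Gata3+Tcf7+ cells on which the lower Trbc1 value over all cells rested, 6 of 9 in KO and 14 of 20 in WT lay in this gate. Trbc1 was not recomputed in the gate without them. Notch1 had a log2 ratio of 0.18 (0.12 to 0.25), Satb1 0.13 (0.08 to 0.18), Ighm 0.11 (0.05 to 0.18) and Ebf1 0.24 (0.07 to 0.41), beside a median of 0.09 over all genes in the gate. Trbc2 had -0.04 (-0.09 to 0.02) there, against -0.20 over all cells.

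Mzb1 lay lower in KO in each of the 4 gates. Its log2 ratio was -0.37 (-0.46 to -0.28) in CD150-CD48+, -0.65 (-0.91 to -0.39) in CD150-CD48- and -0.79 (-1.25 to -0.34) in the stem cell gate. In CD150+CD48+ it was -0.11 (-0.42 to 0.20), within counting error. Weighting KO cells to the WT gate shares gave -0.41 over all cells.

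Notch1 and Satb1 differed in sign between gates. In CD150+CD48+ cells Notch1 had a log2 ratio of -0.36 (-0.57 to -0.15) and Satb1 -0.34 (-0.50 to -0.18), and Notch1 had -0.39 (-0.74 to -0.05) in the stem cell gate. The difference between gates was not tested. Ccr9 had 1.06 (0.64 to 1.5) in CD150+CD48+ cells, with 129 UMIs in 20 KO cells and 72 UMIs in 26 WT cells. Ebf1 had 2.86 (1.36 to 4.82) in CD150-CD48- cells, but 29 of its 32 KO UMIs lay in the 1 KO cell with Cd79a, Igll1 and Pax5, and 3 UMIs in KO and 3 in WT were left without the highest cell of each library.

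Shares of cells with a UMI were compared after each cell was thinned to 8000 UMIs, since the libraries differed in depth. A B-side UMI was found in 24.9% (23.3 to 26.6) of KO cells and 27.9% (26.7 to 29.1) of WT cells, a difference of -3.02 points (-5.03 to -0.96). A T-side UMI was found in 50.3% (48.4 to 52.2) of KO cells and 52.9% (51.5 to 54.2) of WT cells, a difference of -2.59 points (-4.91 to -0.27). Within the CD150-CD48+ gate, which held a smaller share of the KO cells, the B-side difference was -2.24 points (-5.03 to 0.61) and the T-side difference 0.48 points (-2.42 to 3.34), both within counting error. In cells with erythroid transcripts, which should lack antigen receptor transcripts, the B-side share was 3.25% of 277 KO cells and 2.50% of 240 WT cells. The T-side share in them was 8.30% and 7.50%. Those cells had median depths of 71340 UMIs in KO and 52773 UMIs in WT before thinning. Cells with mast cell or basophil transcripts, taken for the same purpose, held a B-side UMI in 1 KO and 1 WT cell. They held a T-side UMI in 36 of 65 KO and 33 of 55 WT cells, so the T-side share was not low in all such cells.

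Mzb1 was the B-side member whose own share differed beyond counting error. It was found in 12.3% (11.1 to 13.6) of KO cells and 16.1% (15.2 to 17.2) of WT cells, a difference of -3.82 points (-5.38 to -2.20), against 1.08% and 0.417% of erythroid-transcript cells. Ighm was found in 17.9% of KO and 18.1% of WT cells (-0.20 points, -1.96 to 1.61), and in 2.89% and 2.08% of erythroid-transcript cells. Ebf1 was found in 55 KO cells (2.06%) and 102 WT cells (1.91%), Rag1 in 15 and 38 cells, and Dntt in 2 and 3 cells.

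None of the T-side members differed beyond counting error in its own share. Satb1 was found in 35.1% of KO and 36.1% of WT cells (-0.96 points, -3.17 to 1.27), Notch1 in 25% of each (-0.04 points, -2.03 to 1.99) and Trbc2 in 14.8% and 16.1% (-1.23 points, -2.88 to 0.46). Ccr9 was found in 5.73% of KO and 5.78% of WT cells, and Trbc1 in 1.99% and 1.87%. Without thinning the T-side share was 2.22 points (0.25 to 4.14) higher in KO, so that its direction rests on the thinning. With at least 2 UMIs required, both differences lay within counting error. The T-side difference also did so with a UMI floor of 2 times that used (-2.50 points, -5.09 to 0.10) and without the 5% of cells with most UMIs (-2.10 points, -4.47 to 0.28).

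Markers of mature lymphocytes differed widely in level, and some were near 0. The 8 mature B cell markers summed to 28.3 CPM in KO and 35.2 CPM in WT, of which Cd79b made 27.2 and 33.5 CPM, and the 8 T cell markers summed to 10.4 CPM in KO and 12.1 CPM in WT, of which Lck made 5.07 and 6.36 CPM and Cd4 2.79 and 3.66 CPM. After thinning, the T cell genes Cd3e and Trac were found in 1 and 3 KO cells and in 0 and 3 WT cells. The B cell gene Pax5 was found in 0 KO and 4 WT cells and Cd79a in 4 and 20. Of the surrogate light chain genes of B cell precursors, Igll1 was found in 0 KO and 6 WT cells. Vpreb1 was found in 29 KO (1.09%) and 100 WT cells (1.87%), a difference of -0.78 points (-1.30 to -0.21). Each 0 allows up to 0.112% of KO or 0.0561% of WT cells with a UMI at this depth (3 counts) and is no limit on cells that express the gene, since unthinned KO cells had 1 Pax5 and 4 Igll1 UMIs. The list of 8 plasmacytoid dendritic cell markers, which shares Ccr9, summed to 299.2 CPM in KO and 327.6 CPM in WT with 1 gene at 0 in each. Siglech, a defining gene of those cells, was found in 18 KO cells (0.674%) and 43 WT cells (0.804%), and in 2.1% of KO and 2.3% of WT cells with a B-side UMI. Its part in the B-side values was not tested.

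Over all cells, most with a B-side transcript also held a T-side transcript, while in the stem cell gate fewer than 1 in 3 did. Without Notch1 and Satb1, the broadest T-side members, the share over all cells was 44.4% in KO and 42.3% in WT. A T-side UMI was found in 80.7% (77.5 to 83.7) of the 664 KO cells with a B-side UMI and in 40.2% (38.0 to 42.4) of the other KO cells. In WT it was found in 78.2% (76.0 to 80.3) of 1491 B-side cells and in 43.1% (41.5 to 44.7) of the others. Cells with both sides numbered 536 in KO and 1166 in WT, which is 1.61 times in KO and 1.48 times in WT the product of both shares. Within the CD150-CD48+ gate the shares were 85.6% in B-side cells and 52.7% in others of KO, and 83.7% and 51.9% of WT. In CD150-CD48- cells they were 69.5% and 35.9% in KO, and 60.8% and 39.8% in WT.

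The stem cell gate did not show this pairing, but few of its cells held Ighm, Ebf1, Trbc2 or Ccr9. Its B side was mainly Mzb1, found in 23 KO and 64 WT cells, against Ighm in 2 and 5 and Ebf1 in 0. Its T side was mainly Notch1 (33 KO and 91 WT cells) and Satb1 (20 and 76), against Trbc2 (4 and 6) and Ccr9 (4 and 1). Pairing of Ighm or Ebf1 with Trbc2 or Ccr9 could thus not be judged in this gate. A T-side UMI was found there in 7 of 25 KO B-side cells (28%, 12.1 to 49.4) and in 46 of 175 other KO cells (26.3%, 19.9 to 33.5). In WT it was found in 21 of 68 B-side cells (30.9%, 20.2 to 43.3) and in 136 of 408 others (33.3%, 28.8 to 38.1). In CD150+CD48+ cells it was found in 24 of 31 KO B-side cells (77.4%, 58.9 to 90.4) and 18.2% of others, and in 44 of 65 WT B-side cells (67.7%, 54.9 to 78.8) and 23.6% of others.

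Cells with an Ebf1 UMI (Ebf1 cells) often carried T-side genes as well. The 4 WT cells with Cd79a, Igll1 and Pax5 were an exception, with 121 Ebf1 UMIs but 1 Trbc2 UMI and 0 Ccr9 UMIs. Trbc2 was found in 34 of 55 KO Ebf1 cells (61.8%, 47.7 to 74.6) and 69 of 102 WT Ebf1 cells (67.6%, 57.7 to 76.6), against 13.8% of KO and 15.1% of WT cells without Ebf1. Ccr9 was found in 38.2% (25.4 to 52.3) of KO and 48.0% (38.0 to 58.2) of WT Ebf1 cells, against 5.05% and 4.96% of cells without Ebf1. Notch1 was found in 83.6% (71.2 to 92.2) of KO and 70.6% (60.7 to 79.2) of WT Ebf1 cells. The intervals of the libraries overlap for all 3 genes.

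Ighm cells showed the same pairing. Trbc2 was found in 45.5% (41.0 to 50.1) of 477 KO and 44.1% (40.9 to 47.3) of 966 WT Ighm cells, against 8.17% and 9.89% of cells without Ighm. Mzb1, the B-side partner, was found in 30.6% (26.5 to 35.0) of KO and 36.7% (33.7 to 39.9) of WT Ighm cells. Rag1 cells were few, and Trbc2 was found in 9 of 15 KO and 24 of 38 WT Rag1 cells.

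**Figure D3:**
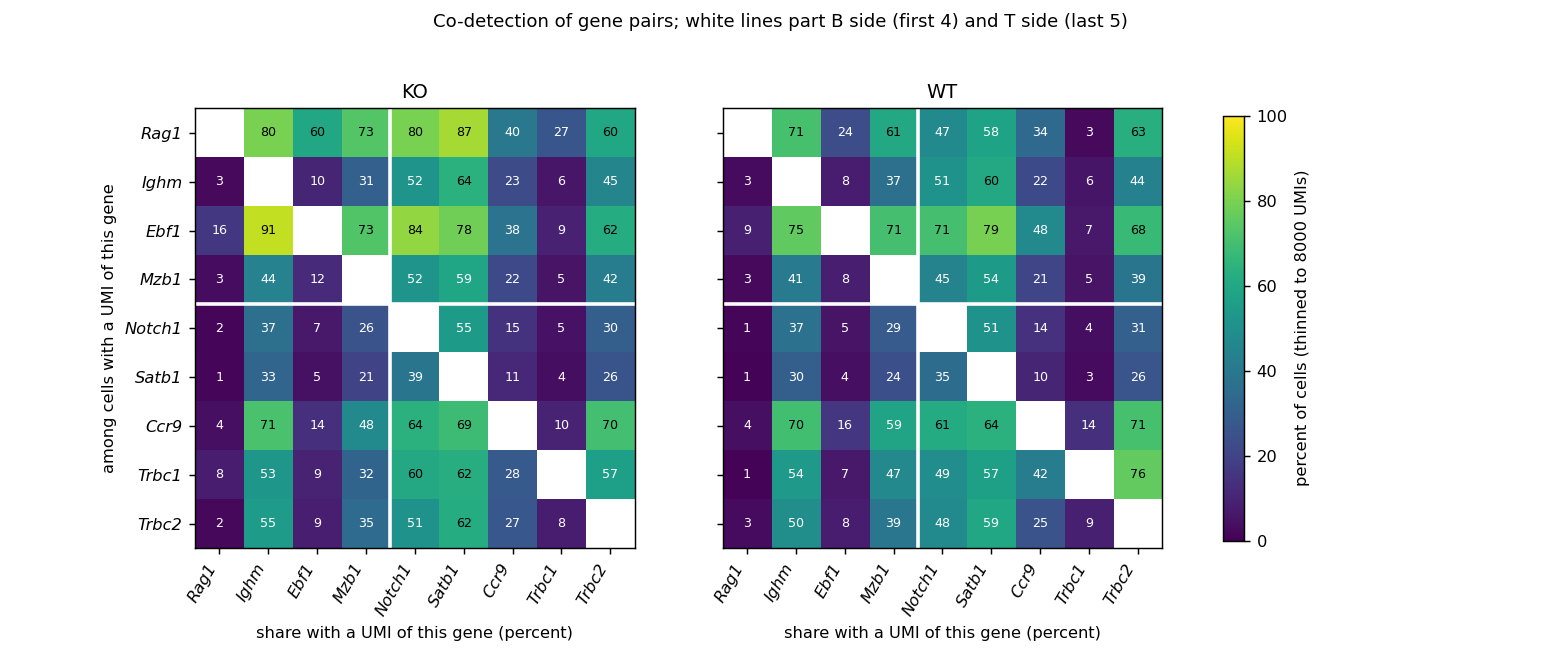
Percent of cells with a UMI of the column gene among cells with a UMI of the row gene, in KO (left) and WT (right), thinned to 8000 UMIs; Dntt is left out for its 2 and 3 cells. Among Ebf1 cells, Trbc2 reached 61.8% in KO and 67.6% in WT.

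The number of T-side members in a cell went with the number of B-side members. Of the cells with 0 B-side members, 1.9% of 2005 KO cells and 1.8% of 3854 WT cells had 3 or more T-side members. Of cells with 1 B-side member it was 15% of 500 KO and 14.0% of 1089 WT cells, and of cells with 2 it was 52.4% of 124 and 45.8% of 332. Of cells with 3 or more it was 70.0% (53.5 to 83.4) of 40 KO and 72.9% (60.9 to 82.8) of 70 WT cells. Cells with 3 or more B-side members and 0 T-side members numbered 0 in KO and 3 in WT.

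**Figure D4:**
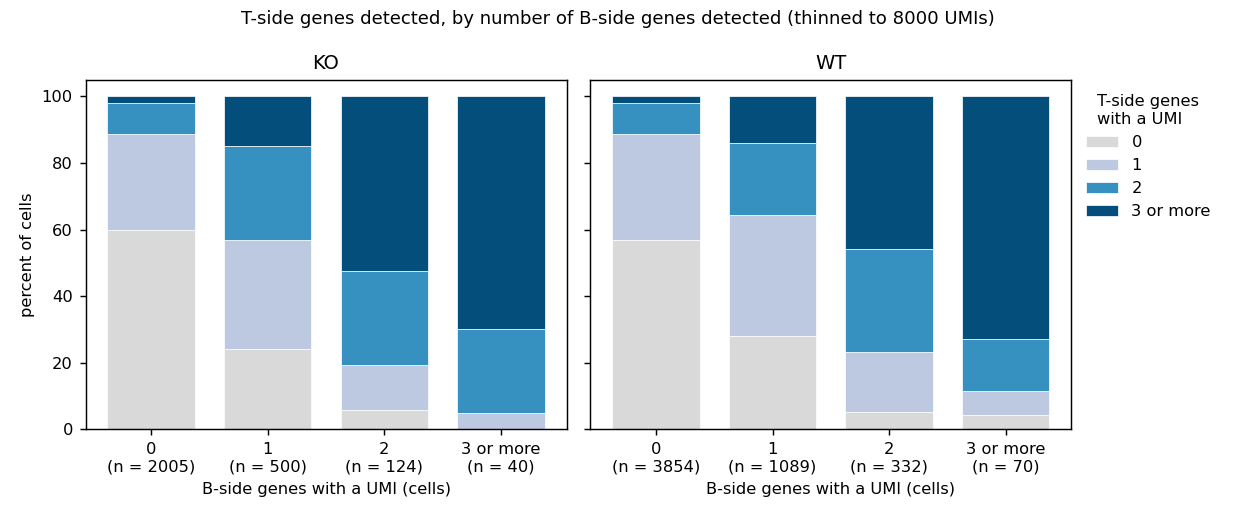
Percent of cells (vertical axis) with 0, 1, 2 and 3 or more T-side members (shades), by number of B-side members with a UMI (horizontal axis, cell numbers below), in KO (left) and WT (right). The darkest part, 3 or more T-side members, grew with the B-side number to 70.0% in KO and 72.9% in WT.

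The doublet caller marked too few barcodes to have worked, and droplets with 2 cells could hold both sides. Without the 5% of cells with most UMIs, a T-side UMI was found in 80.6% of KO and 78.3% of WT cells with a B-side UMI. Without Notch1 and Satb1, the broadest T-side members, it was found in 44.4% (40.6 to 48.3) of KO and 42.3% (39.8 to 44.9) of WT B-side cells, against 8.33% and 8.80% of the others.

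Genes of lymphoid-primed progenitors were more frequent in B-side cells of both libraries. Il7r, the interleukin 7 receptor gene, was found in 10.7% (8.4 to 13.3) of KO and 10.1% (8.6 to 11.7) of WT cells with a B-side UMI, against 1.7% and 1.2% of the others. Flt3, a receptor of lymphoid-primed progenitors, was found in 61.7% of KO and 62.0% of WT B-side cells, against 26.2% and 31.0% of the others.

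Across single cells the members were often among the genes most like each other. By Pearson's r of log(1 + counts per 10000), ranked over the WT cells and given as a description of cells that share a library and differ in depth, the gene most like Ccr9 was Trbc2, with r of 0.58 in KO and 0.51 in WT. The gene most like Trbc2 was Ighm (0.57 and 0.52). The gene most like Ighm was Il12a, which encodes a cytokine subunit (0.57 and 0.53), followed by Trbc2 and Mzb1 (0.49 and 0.49). The genes most like Mzb1 were Ighm, Trbc2 (0.50 and 0.45) and Tmem108 (0.50 and 0.44). Ighm also ranked first for Notch1 (0.56 and 0.49) and for Satb1 (0.51 and 0.44), followed by Mzb1 and Il12a for Notch1, and by H2afy and Flt3 for Satb1.

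Calls in the lists around the members are read beside the shares over all genes measured, 10.2% at least 25% higher and 4.49% at least 20% lower in KO. Of 16 measured lymphoid priming genes, none was at least 25% higher in KO, 3 (Ltb, Lsp1 and Ccr7) were at least 20% lower and the median log2 ratio was -0.02. Ccr7 was near the 1 CPM filter, with 0.918 CPM in KO and 1.31 CPM in WT (-0.51, -0.88 to -0.15). Ltb, a lymphotoxin gene, had 34.2 CPM in KO and 58.2 CPM in WT. Lsp1, a leukocyte actin-binding protein gene, had 149.4 CPM in KO and 188.8 CPM in WT (-0.34, -0.37 to -0.31). Cd27, a costimulatory receptor gene, had 63.2 CPM in KO and 78.2 CPM in WT (-0.31, -0.35 to -0.26), just short of a call. Of 6 measured B lineage genes, 0 were higher and 1 lower, with a median of -0.10. The 1 lower gene was Vpreb1, with 1.41 CPM in KO and 2.28 CPM in WT (-0.70, -0.99 to -0.41). Cd79b, a B cell receptor signalling gene, had 27.2 CPM in KO and 33.5 CPM in WT (-0.30, -0.37 to -0.23), just short of a call. The list's Bcl11a, a factor needed for B cell development, had 0.16 (0.13 to 0.18).

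Of 10 measured T lineage genes, 3 were higher (10.2% of all genes) and 2 lower (4.49% of all genes), with a median log2 ratio of 0.14. Tcrg-C1, a T cell receptor gamma constant region gene, had 11.3 CPM in KO and 3.93 CPM in WT, a log2 ratio of 1.52 (1.38 to 1.67). It had 1170 UMIs in 207 KO cells and 556 UMIs in 171 WT cells, and the 5 cells with most held 18.1% of its UMIs in KO and 17.6% in WT. Lck had 5.07 CPM in KO and 6.36 CPM in WT (-0.33, -0.48 to -0.17). In KO, Tcrg-C1 stood above WT and the beta chain members below it. The gamma constant region genes resemble each other in sequence, so reads of other copies may be counted here.

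Of 19 measured Notch pathway genes, 3 were higher and 1 lower, with a median log2 ratio of 0.07. The 3 higher genes were Hes1, Notch2 and Nrarp. Hes1, a target of Notch signals, had 7.52 CPM in KO and 5.40 CPM in WT (0.48, 0.33 to 0.62). Notch2 had 18.3 CPM in KO and 13.2 CPM in WT (0.47, 0.38 to 0.56), and Nrarp 3.19 and 2.42 CPM (0.40, 0.18 to 0.62). Rfng, which modifies Notch receptors, had 0.32 (0.17 to 0.46), just short of a call. The 1 lower gene was Hes5, another target of Notch signals, with 1.88 CPM in KO and 2.62 CPM in WT (-0.47, -0.73 to -0.22). Of 13 measured genes of V(D)J recombination and end joining, 1 was higher and 0 lower, with a median of 0.03. Rag2, named as the partner of Rag1 and not for its size of difference, had 2.75 CPM in KO and 2.81 CPM in WT (-0.03, -0.25 to 0.19).

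Markers of other cells differed between the libraries. All 8 erythroid progenitor markers were at least 25% higher in KO, with summed levels of 236.9 CPM in KO and 126.4 CPM in WT, as were 5 of 6 measured mast cell and basophil markers (697.3 and 528.9 CPM) and 4 of 8 granulocyte-monocyte markers (959.5 and 789.8 CPM). Of 7 measured stem cell markers, 0 were higher and 3 lower (357.2 CPM in KO and 417.5 CPM in WT). Natural killer and innate lymphoid markers summed to 55.6 CPM in KO and 45.8 CPM in WT, liver cell markers to 11.8 and 7.98 CPM, and macrophage markers to 3.26 and 2.28 CPM. All members are given per gene UMI of all cells, and the part of these cells in the levels over all cells was not tested. Within the CD150-CD48+ gate Mzb1 was still lower in KO, and the difference in Trbc2 lay within counting error.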

How the data were processed

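RNA and surface proteins of single LSK cells were measured in 1 KO and 1 WT library. Per the submitters' processing notes, Cell Ranger 4.0.6, the mm10 build, Seurat and DESeq were used, with no role given for each. The deposited matrices hold counts, whole UMIs per gene or antibody and barcode, with no normalization. Gene positions were looked up by symbol in RefSeq's annotation of GRCm38.p6, the assembly that mm10 names, and all 10 members matched. Cells were barcodes with at least 10% of the gene UMIs at the 99th percentile of the top 6000 barcodes (never under 1000), 500 or more genes and no more than 10% of UMIs on mitochondrial genes. Scrublet in scanpy 1.11.5 marked 7 KO and 0 WT barcodes, which were left out, so most doublets remained. Gates came from a 2-component Gaussian mixture (scikit-learn 1.9.0) on log2(antibody UMIs + 1) per library. Levels are UMIs pooled over cells per 1000000 gene UMIs (CPM), and 1 CPM on average was needed for a call. A call was at least 25% higher or 20% lower, and at least 2-fold between gates.

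Intervals are exact Poisson for levels, exact conditional binomial for ratios, Clopper-Pearson for shares and Newcombe for differences of shares (scipy 1.17.1, 95%). They treat UMIs as independent. Interval functions were tested on simulated data. Shares were taken after thinning to 8000 UMIs per cell.

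The members and lists were chosen with earlier results of these data known. The text names all members, Bclaf1, the 3 genes most like each frequent member, and up to 3 genes per list with the largest log2 ratio at 5 CPM or more. It also names some called list genes under 5 CPM, and marker or partner genes of co-detection. Alternatives to scaling, cell filters, gates, thinning and free RNA were run. Sets of cells named after seeing the data are additions. No test between genotypes was possible with 1 library each.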

Additional observations from a re-analysis of the deposited data

Results flagged for a closer look

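The KO over WT ratio of Notch1 differed in sign between surface gates, with counting intervals on opposite sides of 0. Its log2 ratio was 0.18 (0.12 to 0.25) in CD150-CD48+ cells, -0.36 (-0.57 to -0.15) in CD150+CD48+ cells and -0.39 (-0.74 to -0.05) in CD150+CD48- cells. Satb1 had a log2 ratio of 0.13 (0.08 to 0.18) in CD150-CD48+ cells and -0.34 (-0.50 to -0.18) in CD150+CD48+ cells. The median over all genes in the CD150-CD48+ gate was 0.09, which lies within the Satb1 interval there. Signs are read against 0 and not against such a median. With 1 library per genotype, neither difference between gates was tested.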

How the results depend on the processing

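No paired analysis was possible because each genotype had 1 library. Of 110 member ratios recomputed under other settings, 88 stayed within the counting interval of the reported value, 22 moved outside it, and 0 changed from a call to the opposite sign. Only Mzb1 and Trbc1 were calls, so that 0 concerns these members alone. Of 57 gate folds, 47 stayed within, 10 moved and 0 turned. The 10 are Ebf1 in KO with Otsu's gates (log2 1.24), Ighm, Ccr9 and Trbc2 in WT on the centred log ratio (3.79, 3.62 and 3.34), and at fixed shares Mzb1, Notch1 and Satb1 in KO (1.84, 2.05 and 2.93) and Mzb1, Notch1 and Trbc2 in WT (1.16, 1.22 and 4.02). Of the 47, those of Rag1 in both libraries, Trbc1 in KO and Dntt in WT say nothing on stability. Their reported folds are bounds without an interval, and they counted as within at any value. Under the other gates Trbc1 in KO ran from 9.88 to 37.6-fold and Rag1 in KO from 1.69 to 4.59-fold. Over all settings, log2 of KO over WT ran between -0.55 and -0.34 for Mzb1, -0.28 and -0.10 for Trbc2, -0.87 and -0.09 for Trbc1, and -0.13 and 0.46 for Ebf1. Ighm, Notch1, Satb1 and Ccr9 stayed between -0.11 and 0.13 and took both signs. The number of members higher in KO was 1 in place of 0 with no filter on low values (Dntt), with a UMI floor of 2 times that used (Ebf1, 0.46) and without the cells with Cd79a, Igll1 and Pax5 (Ebf1, 0.35). The number lower in KO was 1 in place of 2 at a threshold of 50% higher or 33% lower, and without Gata3+Tcf7+ cells. The difference in T-side share was 2.22 points without thinning. With at least 2 UMIs required it was -0.12 points, and that in B-side share -0.40 points. A T-side UMI was found in 93.4% of KO and 90.5% of WT B-side cells without thinning, and in 44.4% of KO and 42.3% of WT B-side cells without Notch1 and Satb1 on the T side. The cause of these shifts was not tested. The number of members at least 2-fold higher in CD150-CD48+ cells of both libraries was 6 to 9 under 3 other ways to set the gates. Depth limits Dntt and Rag1, and 1 library per genotype limits every comparison.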

Other observations

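Among CD150-CD48+ cells, Ccr9 was lower in cells that carried CD201, a stem cell surface protein. It had 11.2 CPM in CD201+ and 25.2 CPM in CD201- cells of KO, and 7.91 CPM in CD201+ and 23.5 CPM in CD201- cells of WT. Ccr9 was not alone in this. Trbc2 in CD201+ cells was 0.68-fold of CD201- cells in KO and 0.41-fold in WT, and Ebf1 0.50-fold and 0.73-fold. Trbc1 was 1.22-fold in KO and 0.61-fold in WT. Mast cell or basophil transcript cells held T-side UMIs in 36 of 65 KO cells and 33 of 55 WT cells after thinning, and B-side UMIs in 1 KO and 1 WT cell. Bcl11b had 1 UMI in KO and 63 UMIs in WT, and 58 of the WT UMIs lay in 5 cells.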
